A study of Mus musculus with 4 samples.

Results

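The genes described here encode the subunits of voltage-gated ion channels and their close relatives. They were chosen by symbol: every gene beginning with Kcn (potassium), Cacna1, Cacna2d, Cacnb or Cacng (calcium) or Hcn (hyperpolarisation-activated), and every Scn gene with a number and the letter a or b (sodium). The array held 130 such genes among 19937, each taken from a probe set annotated to a single gene. Of these, 92 were in the potassium class, 24 in the calcium class, 11 in the sodium class and 3 in the Hcn class. Another 12 channel symbols of the RefSeq gene table had no probe set of their own and were not analysed here. The symbol rule is wider than its name, because the potassium class includes inward rectifiers and leak channels that lack a classical voltage sensor, and 3 of its genes (Kcnd3os, Kcnmb4os1 and Kcnmb4os2) are non-coding RNAs that lie at channel genes.

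The cells were primary neurospheres grown from the lateral ventricle walls of C57BL/6 mice aged 9 to 12 weeks, and all 4 arrays share the same handling apart from the drug. Every culture received non-targeting control siRNAs and virus that expresses Pax6, a homeodomain factor with neurogenic activity, and was held in suspension for 36 h. Growth factors were then withdrawn and the cells were plated on laminin for 10 h. The DMSO group (2 arrays) was kept in 0.01% DMSO, and the olaparib group (2 arrays) with the same solvent plus 100 nM of olaparib, a drug that blocks the poly(ADP-ribose) polymerases PARP1 and PARP2. The question is how blocking these enzymes alters transcripts early in neuronal differentiation, and every difference below is olaparib minus DMSO on the log2 scale. No array without Pax6 is used here. The labels name the second array of each group a biological replicate without saying whether cultures or animals were separate, so p-values measure only the spread between these arrays.

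Voltage-gated channels open a selective pore when the membrane potential moves charged segments of the protein. Sodium channels start the action potential, potassium channels repolarise the cell and set its resting potential, and calcium channels turn electrical activity into calcium signals. Each pore-forming subunit works with accessory subunits that alter its gating or its delivery to the membrane. In the adult subventricular zone, stem cells and astrocytes have a large resting potassium conductance carried mainly by inward rectifiers and leak channels, while voltage-gated sodium and potassium currents appear as neuroblasts mature.

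Array medians ran from 6.60 to 6.68 on the log2 scale, and precision is limited by having only 4 arrays. Background was read from 46 genes of tissues unrelated to brain, such as liver, muscle and testis. A gene was called above background where both arrays of at least 1 group exceeded the 95th percentile of those 46 genes on the same array, a log2 value between 6.82 and 6.94. By that rule 47.8% of all genes were above background. Markers of the labelled tissue were present: all 11 astrocyte and neural stem cell markers and 8 of 11 neuroblast markers were above background, against 0 of 7 microglial and 1 of 9 vascular markers. The median within-group SD over the channel genes tested was 0.042 with DMSO and 0.078 with olaparib, so the olaparib arrays differed more from each other.

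Most channel genes were not above background. Of the 130 members, 36 passed (27.7%): 25 of 92 in the potassium class, 9 of 24 in the calcium class, 2 of 11 in the sodium class and 0 of 3 in the Hcn class. Within the potassium class, 10 of 25 Kv pore subunits passed, as did 5 of 17 accessory subunits, 3 of 8 calcium- or sodium-activated channels, 2 of 15 inward rectifiers, 2 of 14 leak channels (the K2P, or pore-tandem, family) and 2 of 10 modifier Kv subunits. Within the calcium class, the TARPs and other gamma subunits (4 of 7) and the alpha2delta subunits (2 of 4) passed beside 2 of 10 pore subunits. These counts depend on where background is set. With the 75th percentile of the same 46 genes, 65 members passed (47 potassium, 15 calcium, 2 sodium and 1 Hcn). With their highest value, 12 passed (10 potassium, 2 calcium and none of the sodium or Hcn genes). With the 95th percentile of 1194 olfactory and vomeronasal receptor genes, 91 passed. With the mean of the probe sets of a gene, 34 passed and the sodium count was 1. Of the 14 probe sets of Scn2a, the one used had a mean of 7.08, and the others 6.65 or lower. A value near background can also mean a poorly hybridising probe set, so it sets no order between genes.

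**Figure D1:**
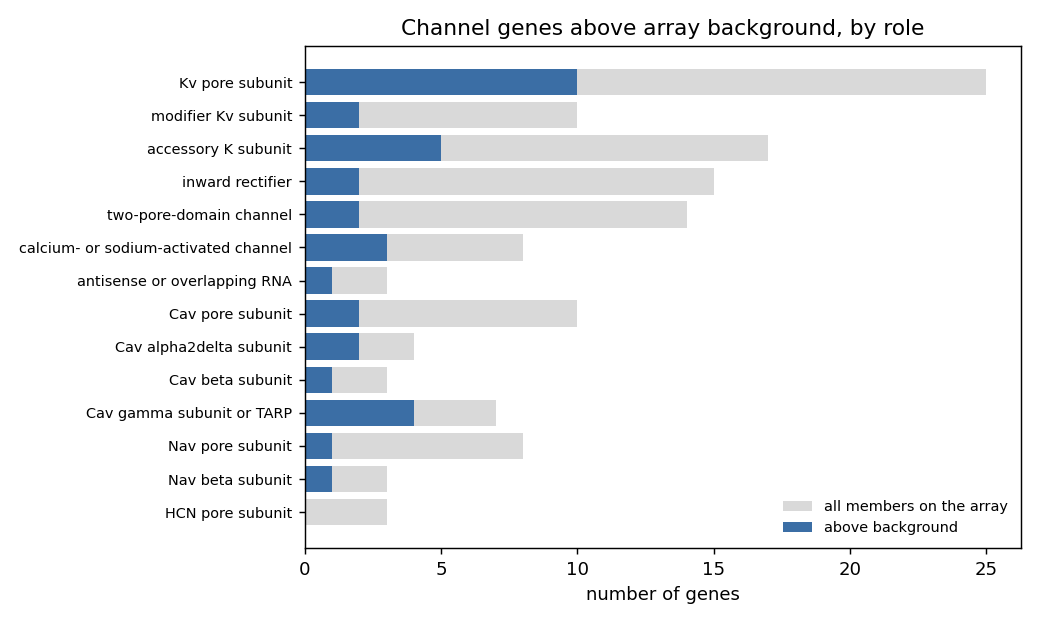
Number of channel genes (horizontal axis) in each role (vertical axis); grey bars are all members on the array and blue bars those above background. Kv pore subunits contribute 10 of the 36 genes above background, and no Hcn gene passed.

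Few channel genes differed between the groups, and those that did were mostly accessory subunits. Kcne1l and Kcnk2 fell by 0.76 and 0.72 on the log2 scale, Kcnab2 fell by 0.29, and Kcnip1 and Scn3b rose by 0.56 and 0.40. Of the 92 members above the filter on dim genes, 2 rose, 3 fell and 87 did not pass an adjusted p of 0.05 in limma. That share, 5.43%, lies beside 6.22% of all 13956 genes tested (2.84% higher and 3.37% lower), a share close to that background. After quantile normalization 2 were higher and 6 lower, which is 8.70% of those tested beside 9.35% of all genes. After cyclic loess the numbers were 2 and 5, or 7.61% beside 9.06%. Other settings put the members above all genes. After median centring the numbers were 3 and 3, or 6.52% beside 4.66%. With genes above the 50th percentile only, they were 2 and 4, or 14.3% beside 10.1%. In the fit as reported, 17 members had an unadjusted p under 0.05, where the share of all genes was 19.1%. The groups did not overlap in 42 of the 92 (45.7%), against 47.1% of all genes. The other 38 members lay under the filter, with differences between -0.13 and 0.14. All 5 genes past the threshold were among the 36 above background, where 8.77% of all genes were called and 4.69% were lower. Either group can put a gene above background, and Kcnab2 passed only through its DMSO arrays. With all 4 arrays required above background, 4 of the calls remained. With the highest unrelated-tissue value as background, 2 remained.

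The 5 calls depend on the rows that enter limma. When both the spread estimate and the adjustment of p-values were taken over 21704 probe sets, including those without a single gene name, 0 of the 92 passed in limma, where 0.086% of all genes did. The smallest adjusted p was then 0.0523, for Kcne1l. In that fit 10 members had an unadjusted p under 0.05, a count given without the share of all genes at that level. Kcnip1, Scn3b and Kcnab2 were lost without DMSO replicate 1, and only Kcnab2 was lost without DMSO replicate 2. When either olaparib array was left out, all 5 were kept and further members passed. In all of these runs the count over all genes moved in the same direction as the count of members. Each such run leaves a single array in 1 group. An exact permutation test over 2 against 2 arrays could not go below p = 0.333 for any gene.

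**Figure D2:**
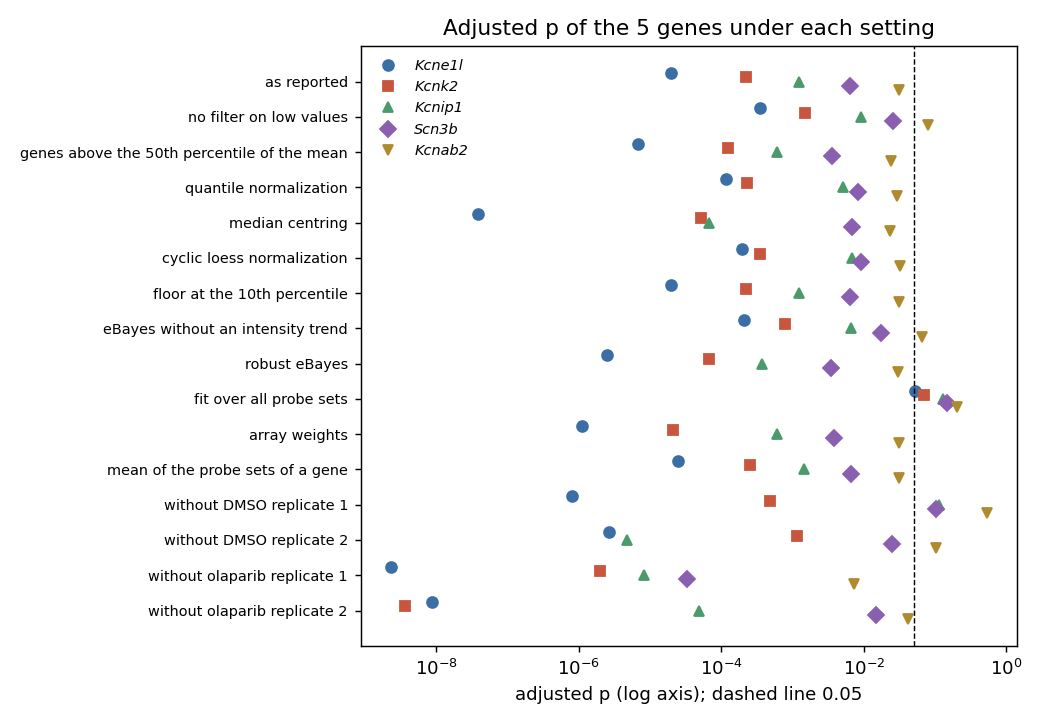
Adjusted p in limma (horizontal log axis) of the 5 channel genes past the threshold under each way of processing the values (vertical axis); the dashed line is 0.05. Kcne1l and Kcnk2 lie right of the line only in the fit over all probe sets (0.0523 and 0.07), and Kcnab2 crosses it most often.

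The median difference of each class was small. It was -0.0084 over the 66 potassium genes tested, -0.023 over 20 calcium genes, -0.033 over 3 sodium genes and -0.018 over 3 Hcn genes, beside 0.0013 over all genes. With genes above the 50th percentile only, the potassium median was -0.078 and the sodium median, over 2 genes, 0.13. The sodium median was 0.011 with the mean of the probe sets of a gene. The potassium median ran from -0.068 without olaparib replicate 1 to 0.026 without olaparib replicate 2. Over the 36 members above background the median was -0.07, with 13 above 0 and 23 below. Calls fell in the potassium class (1 higher, 3 lower) and the sodium class (1 higher), with 0 of 20 in the calcium class and 0 of 3 in the Hcn class. In the calcium class 3 of 20 genes were at an unadjusted p under 0.05, and in the Hcn class 0 of 3, where the share of all genes was 19.1%. By role, 4 of 24 accessory subunits tested passed (16.7%), against 1 of 65 pore-forming and modifier subunits (1.54%), beside 6.22% of all genes. This contrast was noticed after the values were seen and was not tested. In 76 of the 92 genes the difference was smaller than 0.2 in size, and the median size, 0.067, was below the median gap of 0.11 between the 2 olaparib arrays. The same held over all genes: 11430 of 13956 were under 0.2, with a median size of 0.085 and a median olaparib gap of 0.11.

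**Figure D3:**
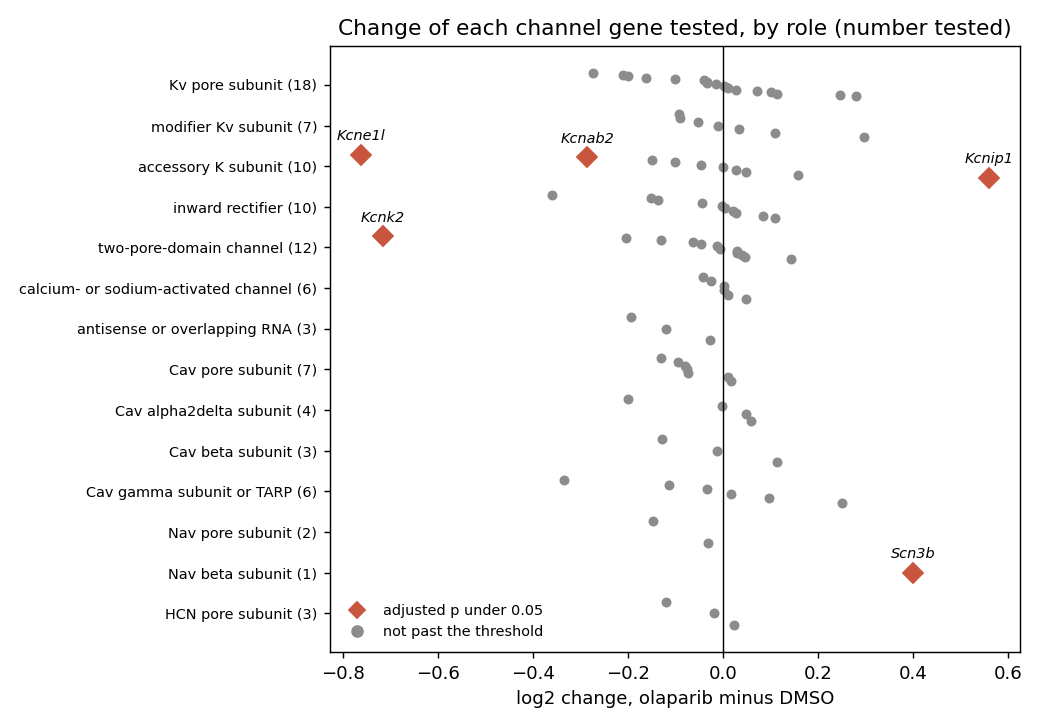
Log2 difference, olaparib minus DMSO (horizontal axis), of each of the 92 channel genes tested, grouped by role (vertical axis, number tested in brackets). The 5 genes with an adjusted p under 0.05 are red diamonds with names, from -0.76 for Kcne1l to 0.56 for Kcnip1, and grey points are genes that did not pass.

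The promoters of the genes that passed are shown because these are the members whose transcripts differed. Of the 5, 4 matched the RefSeq promoter table (build GRCm38.p6), and Scn3b did not. Each line gives the 250 bases before the outermost annotated start, 5′ to 3′ on the gene's own strand, which is the minus strand for all 4. RefSeq lists 1 start for Kcne1l, 4 for Kcnk2 and 3 each for Kcnip1 and Kcnab2, and the arrays do not tell which was used. Capitals mark matches, on either strand, to the E-box CAGCTG or to the GC box GGGCGG.
Kcne1l promoter, chrX:142306199-142306448: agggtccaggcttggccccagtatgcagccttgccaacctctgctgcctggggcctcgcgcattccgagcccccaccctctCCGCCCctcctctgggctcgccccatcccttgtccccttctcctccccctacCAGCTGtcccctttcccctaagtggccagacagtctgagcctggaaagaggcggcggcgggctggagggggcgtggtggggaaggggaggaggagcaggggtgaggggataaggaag
Kcnk2 promoter, chr1:189402274-189402523: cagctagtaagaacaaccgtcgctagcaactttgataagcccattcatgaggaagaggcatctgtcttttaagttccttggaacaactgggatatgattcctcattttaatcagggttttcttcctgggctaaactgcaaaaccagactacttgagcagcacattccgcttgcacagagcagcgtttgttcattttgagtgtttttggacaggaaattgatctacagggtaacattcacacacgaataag
Kcnip1 promoter, chr11:33993194-33993443: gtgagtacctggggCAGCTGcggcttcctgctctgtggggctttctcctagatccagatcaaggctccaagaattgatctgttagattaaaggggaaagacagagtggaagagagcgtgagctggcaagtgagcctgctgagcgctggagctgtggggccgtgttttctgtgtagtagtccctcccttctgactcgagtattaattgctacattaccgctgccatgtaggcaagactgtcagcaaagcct
Kcnab2 promoter, chr4:152477550-152477799: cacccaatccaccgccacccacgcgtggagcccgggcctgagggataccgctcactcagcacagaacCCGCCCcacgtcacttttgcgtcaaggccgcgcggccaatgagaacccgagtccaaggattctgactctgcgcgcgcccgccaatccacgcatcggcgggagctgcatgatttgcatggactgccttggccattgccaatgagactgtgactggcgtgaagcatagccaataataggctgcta

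The E-box letters were found in Kcne1l and Kcnip1 (13% of 32851 promoter windows of that length hold them), and the GC box in Kcne1l and Kcnab2 (32.7%). The TATA box TATAAA (12.4% of windows) and TTCAGCACC (0.301%), the first arm of the site bound by the silencer REST, were in none of the 4 windows. The windows differ in composition: G and C made up 68% of the Kcne1l window and 42.4% of the Kcnk2 window, beside a median of 52.4% over all windows. Each motif was searched on both strands and no match overlapped another. A match is a description of letters only.

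The gene with the smallest p was Kcne1l (probe set 10607085), which encodes a single-pass subunit of the MinK family (also named Kcne5) that modulates Kv channels such as KCNQ1. It read 8.10 and 8.14 on the DMSO arrays and 7.32 and 7.40 on the olaparib arrays. Both olaparib arrays lay below both DMSO arrays, by far more than the gap within either group. The difference was -0.76 (SE 0.09, adjusted p = 1.98e-05 in limma), or 1.70-fold lower, from 8.12 ± 0.02 to 7.36 ± 0.06 (SD, n = 2 each). Its relatives Kcne1, Kcne2, Kcne3 and Kcne4 lay under the filter and were not tested.

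Kcnk2 (probe set 10360972) encodes the leak channel TREK-1, which opens with membrane stretch, polyunsaturated lipids and heat and helps to hold the resting potential. Its values were 8.74 and 8.77 with DMSO and 7.91 and 8.17 with olaparib. The DMSO arrays nearly coincided, and the olaparib arrays were both lower but 0.27 apart. Kcnk2 fell by 0.72 (SE 0.10, adjusted p = 0.000223), 1.64-fold lower, from 8.76 ± 0.02 to 8.04 ± 0.19. Kcnk10, the related TREK-2 channel, read 6.91 and 6.84 with DMSO and 6.74 and 6.60 with olaparib, near background, and differed by -0.21 (adjusted p = 0.148); it passed without olaparib replicate 1. Kcnk1, the weakly conducting TWIK-1 channel and the other leak channel above background, differed by 0.14 (SE 0.09, adjusted p = 0.457). The remaining leak channels tested were not above background and did not pass.

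Kcnip1 (probe set 10385096) encodes KChIP1, a calcium-binding protein that speeds recovery of Kv4 channels, the carriers of the transient A-type current, and brings them to the surface. Its values were 7.14 and 7.48 with DMSO and 7.88 and 7.86 with olaparib. Both olaparib arrays were higher, but the DMSO arrays were 0.34 apart. Kcnip1 rose by 0.56 (SE 0.10, adjusted p = 0.00124), 1.47-fold, and without DMSO replicate 1 the difference was 0.39 and its adjusted p 0.113.

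The Kv4 pore genes did not pass. Kcnd2 read 7.39 and 7.47 with DMSO and 7.57 and 7.78 with olaparib, a difference of 0.25 (SE 0.09, adjusted p = 0.114). Kcnd3 read 8.75 and 8.60 with DMSO and 8.78 and 9.13 with olaparib, a difference of 0.28 (SE 0.12, adjusted p = 0.191). In both genes the groups were separate but the olaparib arrays stood 0.21 and 0.35 apart. Kcnip3, a further KChIP that also acts as the transcriptional repressor DREAM, differed by 0.16 (adjusted p = 0.494) with overlapping groups, and Kcnip4, under background, by 0.03. Dpp6, a peptidase-like protein that joins the same Kv4 complexes and is no channel gene by symbol, fell by 0.40 (SE 0.08, adjusted p = 0.00586), from 7.26 and 7.42 to 7.00 and 6.89. Its call was lost without DMSO replicate 2 and with the mean of its probe sets. Without olaparib replicate 1, Kcnd2, Kcnd3 and Kcnip3 passed, and Kcnd2 then differed by 0.35, against 0.14 without olaparib replicate 2. With all 4 arrays, Kcnip1 and Dpp6 passed in opposite directions and the pore genes did not pass.

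Kcnab2 (probe set 10518927) encodes the Kv-beta2 subunit, an oxidoreductase-like protein attached to Kv1 channels. It read 7.17 and 7.05 with DMSO and 6.85 and 6.80 with olaparib, and both olaparib values lay below the background level of their arrays. Kcnab2 fell by 0.29 (SE 0.08, adjusted p = 0.0311), and the call was lost with no filter, without the intensity trend and without either DMSO array in turn (adjusted p up to 0.534 over its 16 alternatives). Kcna2, a Kv1 pore gene of axons, read 7.89 and 7.95 with DMSO and 7.60 and 7.70 with olaparib. Its groups were separate, and the difference was -0.27 (SE 0.09, adjusted p = 0.0685). It passed after quantile normalization, after cyclic loess, with genes above the 50th percentile only, at an adjusted p of 0.1 and without olaparib replicate 2. A dimmer probe set of Kcna2 differed by 0.04, so the probe sets of this gene do not show the same change. Kcna1 was under background and differed by 0.07 (adjusted p = 0.718).

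**Figure D4:**
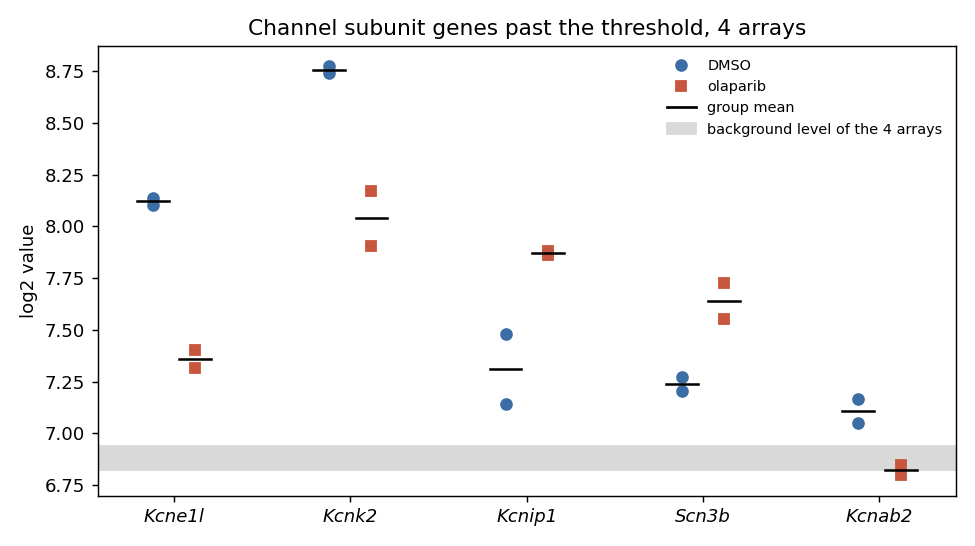
Log2 value (vertical axis) on each array of the 5 channel genes past the threshold; blue circles are DMSO arrays, red squares olaparib arrays, black lines group means, and the grey band spans the background level of the 4 arrays. The groups are separate in all 5 genes, and the olaparib arrays of Kcnab2 (6.85 and 6.80) sit at the grey band.

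The other potassium genes had smaller or more variable differences. Kcnc1, a fast Kv3 pore gene, differed by -0.20 (SE 0.08, adjusted p = 0.175), and Kcnh2, the pore gene of the hERG channel, by -0.21 (SE 0.08, adjusted p = 0.155). Kcnc1 passed without olaparib replicate 2 and Kcnh2 without olaparib replicate 1. Kcnf1, a Kv subunit that is silent alone, read 6.50 and 6.51 with DMSO and 6.59 and 7.00 with olaparib. Its difference of 0.30 (adjusted p = 0.0895) came mainly from olaparib replicate 2: leaving out olaparib replicate 1 gave 0.50, and leaving out olaparib replicate 2 gave 0.09. Kcnf1 passed without olaparib replicate 1, after median centring, with array weights and at an adjusted p of 0.1. Among channels gated by calcium, Kcnn3, a small-conductance channel, read 8.16 and 8.04 with DMSO and 8.05 and 8.16 with olaparib, a difference of 0.0022 (95% interval -0.19 to 0.20). Kcnn2 differed by -0.04 (adjusted p = 0.857) and Kcnma1, the large-conductance BK channel, by -0.03 (95% interval -0.18 to 0.13). Kcnmb4, the BK subunit typical of neurons, differed by -0.15 (SE 0.09, adjusted p = 0.424). Kcnq5, a pore gene of the M-current, differed by 0.10 (adjusted p = 0.57). Kcng4, Kcnv2, Kcns3, Kcnt1 and Kcnrg were not above background, and their differences lay between -0.09 and 0.11.

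The inward rectifiers of glia were next. Kcnj10 (probe set 10351781) encodes Kir4.1, the channel that clears potassium in astrocytes, and Kcnj16 encodes its partner Kir5.1. Kcnj10 read 9.93 and 9.98 with DMSO and 9.47 and 9.72 with olaparib, with separate groups and a difference of -0.36 (SE 0.12, adjusted p = 0.081). It passed the threshold in 5 of its 16 alternatives, among them quantile normalization and cyclic loess. Kcnj16 differed by -0.14 (SE 0.09, adjusted p = 0.497), and the other 8 inward rectifiers tested were not above background. Of 11 astrocyte and neural stem cell markers tested, 2 fell (Gfap by 1.03 and Aqp4 by 0.71) and 0 rose, where 3.37% of all genes were lower. The other 9 did not pass, among them Nes (difference 0.23), S100b (0.17), Fabp7 (-0.03) and Gja1 (-0.38). The median difference of the 11 was -0.15. Their summed linear level was 21821 and 22644 with DMSO and 18145 and 20582 with olaparib. These markers were chosen with earlier results of these data known. The part of these marker differences in Kcnj10 and Kcnk2 was not tested. In bulk RNA, fewer cells of a type and less RNA per cell cannot be told apart.

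**Figure D5:**
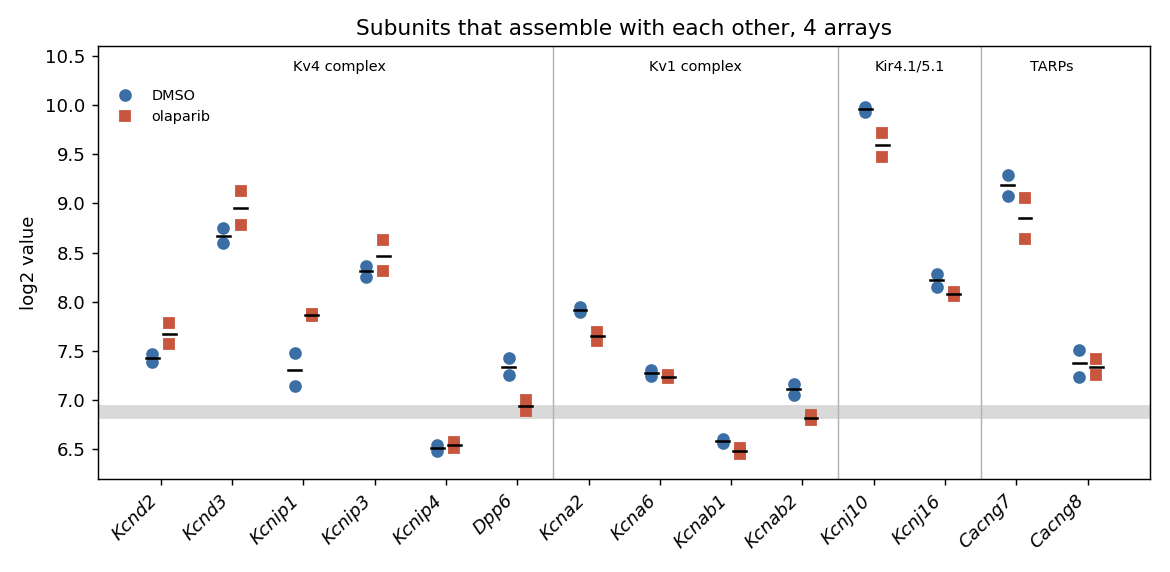
Log2 value (vertical axis) on each array of subunits that assemble with each other or belong to one family, in 4 blocks from left to right; blue circles are DMSO, red squares olaparib, black lines group means, and the grey band the background level. Kcnip1 is higher and Dpp6 lower with olaparib in the Kv4 block, and the olaparib arrays of Kcnj10, Cacng7 and Kcnd3 are widely spaced. Genes of these blocks without a call were picked for display after their values were seen.

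No calcium channel gene passed the threshold as reported, although Cacng7 passed after quantile normalization and Cacng7, Cacng5 and Cacna2d2 without olaparib replicate 2. Among pore genes, Cacna1a (P/Q-type, presynaptic) read 7.24 and 7.22 with DMSO and 7.19 and 7.29 with olaparib, and the groups overlapped; the difference was 0.02 (95% interval -0.15 to 0.18). Cacna1h, a low-voltage T-type gene, was the other pore gene above background and differed by 0.01. Cacna1c (L-type) differed by -0.10 (adjusted p = 0.591), Cacna1g (T-type) by -0.13 (adjusted p = 0.41), Cacna1b (N-type) by -0.08 and Cacna1d (L-type) by -0.07, none of these 4 above background. Cacnb1, a cytoplasmic beta subunit, differed by -0.13 (SE 0.08, adjusted p = 0.39). Cacna2d1, the gabapentin-binding alpha2delta subunit, differed by 0.05 (95% interval -0.17 to 0.27), and Cacna2d2 by -0.20 (adjusted p = 0.167).

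The Cacng genes include the TARPs, which carry AMPA receptors to the cell surface and to synapses. Cacng7 read 9.29 and 9.08 with DMSO and 8.64 and 9.06 with olaparib. The lower DMSO array and the higher olaparib array were almost level, and the difference was -0.33 (SE 0.13, adjusted p = 0.141). Cacng5 read 7.26 and 7.14 with DMSO and 7.57 and 7.33 with olaparib, a difference of 0.25 (SE 0.09, adjusted p = 0.108). Cacng4 differed by -0.11 (adjusted p = 0.519) and Cacng8 by -0.03 (adjusted p = 0.914). Cacng5, Cacng7, Cacng8, Cacna2d2 and Cacna1h lie outside the rule for named genes and were picked after their values were seen, as were Kcna2, Kcnd3, Kcnip3, Kcnip4, Kcnk1, Kcnk10 and Kcnn3.

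The sodium class was thinly represented. Only Scn2a, Scn8a and Scn3b passed the filter on dim genes. Scn3b (probe set 10584549) encodes the beta3 subunit, a cell adhesion-like protein that shifts sodium channel gating. It read 7.20 and 7.27 with DMSO and 7.55 and 7.72 with olaparib, and both olaparib arrays were higher. Scn3b rose by 0.40 (SE 0.08, adjusted p = 0.00642), 1.32-fold, from 7.24 ± 0.05 to 7.64 ± 0.12; without DMSO replicate 1 its adjusted p was 0.103. Scn2a, the pore gene of immature axons, read 7.07 and 7.24 with DMSO and 6.90 and 7.11 with olaparib, with overlapping groups and a difference of -0.15 (SE 0.09, adjusted p = 0.396). It had 14 probe sets, whose differences ran from -0.15 to 0.10, with 4 below 0. Scn8a, under background, differed by -0.03 (adjusted p = 0.903). Scn1a, Scn3a and Scn2b lay under the filter, with values between 6.07 and 6.37. The Hcn genes, which carry the pacemaker current, lay under background, and Hcn2, Hcn3 and Hcn4 differed by -0.02, -0.12 and 0.02.

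Neuroblast markers were read in the same arrays, and the marker lists were chosen with earlier results of these data known. Of 10 tested, 4 fell (Dcx by 1.05, Nsg2 by 0.74, Map2 by 0.55 and Celf3 by 0.51) and 0 rose. Of all genes, 3.37% were lower and 2.84% higher. The other 6 did not pass, among them Tubb3 (difference -0.32), Elavl3 (-0.09), Rbfox3 (0.01) and Snap25 (0.12). The summed linear level of the 11 markers on the array was 3956 and 4086 with DMSO and 2749 and 3072 with olaparib. Of 9 oligodendrocyte lineage markers tested, 1 rose (Cspg4 by 0.33), 0 fell and 8 did not pass. Their summed linear level was 3665 and 3831 with DMSO and 3270 and 3900 with olaparib. The part of these cell types in any channel difference was not tested.

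Genes whose products bind, anchor or modulate channels, or move the same ions, were taken from 5 lists of textbook partners, written with earlier results of these data known. Of 64 tested, 0 rose, 8 fell and 56 did not pass, where 3.37% of all genes were lower. The median difference was -0.05, against 0.0013 over all genes. With all probe sets in the fit 0 passed in limma, where 0.086% of all genes did. In that fit 15 had an unadjusted p under 0.05, a count given without the share of all genes at that level. With no filter 5 of 74 passed, all of them lower. Of all 19937 genes, 316 were then lower, and 2.87% passed in either direction. Fewer than 8 passed when either DMSO array was left out.

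Of 11 potassium channel partners tested, 3 fell, where 3.37% of all genes were lower. Lgi1, a secreted protein that tunes Kv1 channels and synapses, read 7.58 and 7.74 with DMSO and 7.11 and 6.68 with olaparib. It fell by 0.76 (SE 0.11, adjusted p = 0.000137), with the olaparib arrays 0.44 apart. Akap5, a kinase anchor that regulates Kv7 and L-type channels, read 8.24 and 8.16 with DMSO and 7.52 and 7.66 with olaparib. It fell by 0.61 (SE 0.09, adjusted p = 0.000289). Dpp6, described with the Kv4 complex, was the third.

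Of 13 sodium channel partners tested, 3 fell, where 3.37% of all genes were lower. Unc79, a subunit of the NALCN sodium leak complex, fell by 0.32 (SE 0.08, adjusted p = 0.0259). Nedd4l, a ubiquitin ligase of sodium channels, fell by 0.38 (SE 0.10, adjusted p = 0.0309), and Mapk8ip2, a scaffold that binds the FGF homologous factors, fell by 0.30 (SE 0.08, adjusted p = 0.0238). These 3 calls were lost when either DMSO array was left out and with no filter. Of 14 chloride and ion transport genes, 2 fell, both sodium-calcium exchangers: Slc8a1 by 0.66 (SE 0.08, adjusted p = 3.76e-05) and Slc8a2 by 0.34 (SE 0.08, adjusted p = 0.0103). Slc8a1 read 7.31 and 7.40 with DMSO and 6.76 and 6.63 with olaparib, where both olaparib arrays were under background. Slc8a2 read 6.92 and 7.01 with DMSO and 6.62 and 6.63 with olaparib, where both olaparib arrays were under background. Its call was lost when either DMSO array was left out. The exchanger gene Slc8a3, not above background, differed by 0.01 (adjusted p = 0.971 in limma). The REST silencer complex represses channel genes outside neurons. In limma 0 of its 8 genes passed, with 3 at an unadjusted p under 0.05, beside 19.1% of all genes. Of 18 calcium channel partners 0 passed, and 2 were at an unadjusted p under 0.05, where the share of all genes was 19.1%. Rest itself differed by 0.31 (adjusted p = 0.0577) and its corepressor gene Rcor2 by -0.28 (adjusted p = 0.0572), both named after their values were seen.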

How the data were processed

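Per the labels' protocols, 40 ng of total RNA per sample was amplified and biotin-labelled for an Affymetrix mouse gene array. The file holds the authors' deposited log2 values, 1 per probe set and array; the log base was inferred from their range, and background correction, normalization and probe summary are not given in the sources used here.

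The platform annotation gave a single gene for 21640 of 34760 probe sets, several for 1321 and no entry for 11799. Symbols followed RefSeq (19855 of 19937 genes matched). Each gene took its probe set with the highest mean, and genes whose mean exceeded the 30th percentile (6.42) entered a two-sided limma 3.58.1 test (R 4.3.3; lmFit, then eBayes with an intensity trend). P-values were adjusted by Benjamini-Hochberg over 13956 genes, with a threshold of 0.05. Every adjusted p comes from limma. The fit was tested on simulated data. Named were all members past the threshold, a list of common neuronal channel genes, the smallest p of each other subfamily, and up to 4 partners per list. Members and lists were chosen with earlier results of these data known. Alternatives covered filter, normalization, variance prior, array weights, probe sets, threshold, background level and each array left out. The planned description of channel proteins was not made. Figures used matplotlib 3.10.9 under Python 3.11.15.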

Additional observations from a re-analysis of the deposited data

How the results depend on the processing

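No paired analysis was possible because the second array of each group is titled only as a replicate of the first, and the replicate numbers used here follow accession order, which pairs no arrays. The count of all genes past the threshold was 868 as reported, 573 with no filter on dim genes, 1305 after quantile normalization, 1321 at an adjusted p of 0.1 and 12 with all probe sets in the fit, and it ran from 256 to 2276 with 1 array left out. Channel members past the threshold numbered 5, against 8 after quantile normalization, 8 at an adjusted p of 0.1, 0 with all probe sets and 2 to 14 with 1 array left out. The 5 genes were all among the calls after quantile normalization, and in 11 of the 16 alternatives in all. Those 11 include settings that put no strain on the calls. An adjusted p of 0.1 could not lose any of them, and a floor at the 10th percentile left the adjusted p of all 5 unchanged. Partner genes numbered 8, against 5 with no filter, 0 with all probe sets and 3 to 14 with 1 array left out. With 1 array left out, only the intact pair sets the residual spread of a gene. Members above background numbered 36, against 65 with the 75th percentile of the unrelated-tissue genes, 12 with their highest value, 91 with the receptor genes and 36 to 44 with 1 array left out. The median difference of potassium genes was -0.078 under a filter at the 50th percentile and ran from -0.068 to 0.026 with 1 array left out, and that of sodium genes was 0.13 under that filter, which left 2 of them and no Hcn gene. The cause of these shifts was not tested, apart from fewer genes under a stricter filter. Over 641 comparisons of named genes with an alternative, 595 kept their side of the threshold, 34 lost a call and 12 gained one. The sign turned in 9, none of them a call. The 641 also include the floor and the looser threshold.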
